A study of Mus musculus with 4 samples.

Results

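The lymphoid and pan-leukocyte miRNAs considered here were miR-142a-3p (MIMAT0000155), miR-142a-5p (MIMAT0000154), miR-150-5p (MIMAT0000160), miR-342-3p (MIMAT0000590), miR-181a-5p (MIMAT0000210) and miR-181b-5p (MIMAT0000673), 6 of the 1265 probes of a mouse miRNA array. They were chosen by identifier, for the cells they are known from, and each identifier matched 1 probe. The array was a 3D-Gene chip of 1 colour. Its probes each stand for 1 mature miRNA or, in some cases, for more than 1, and Hy5-labelled RNA is hybridized to them. Cell-free RNA came from the plasma of 2 aged (23 to 24 months) and 2 young (6 to 7 weeks) male C57BL6/J mice, with 1 array per mouse, and no mouse carried a transgene or received a treatment that the labels name. The blood had been drawn by cardiac puncture into EDTA and cleared by centrifugation. Each of the 6 was listed with a value on every one of the 4 arrays, so that all were among the 362 miRNAs that could be compared.

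MiRNAs are short RNAs that guide the silencing complex to mRNAs through a seed near their 5′ end. The hairpin of miR-142 is transcribed in nearly all blood cells and hardly elsewhere, and it gives a mature miRNA from each of its arms. The miRNA miR-150-5p is abundant in mature B and T cells and is known for repressing Myb, and miR-342-3p is made from an intron of Evl and is found in lymphoid cells. The miR-181 family acts in lymphocyte development, where miR-181a-5p sets the sensitivity of T cell receptor signalling in thymocytes, and it is also expressed in brain and other tissues. Plasma mixes RNA from many tissues, so that fewer releasing cells and less RNA released per cell cannot be told apart.

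The sequences show which members share a seed and how near relatives differ. RefSeq (GRCm38.p6) gave 5 of the 6, printed 5′ to 3′ with the seed, bases 2 to 8, in capitals. The relatives miR-181c-5p and miR-181d-5p are shown beside them.
miR-142a-3p: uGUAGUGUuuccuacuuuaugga
miR-142a-5p: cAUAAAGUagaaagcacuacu
miR-342-3p: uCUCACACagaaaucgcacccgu
miR-181a-5p: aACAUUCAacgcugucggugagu
miR-181b-5p: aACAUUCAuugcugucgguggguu
miR-181c-5p: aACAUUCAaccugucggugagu
miR-181d-5p: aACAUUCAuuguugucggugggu

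Of the 1679 mature miRNA names in that table, 4 carried the seed ACAUUCA, and these were miR-181a-5p, miR-181b-5p, miR-181c-5p and miR-181d-5p. The seeds of miR-142a-3p, miR-142a-5p and miR-342-3p were each found in 1 name only. Over the first 23 bases, counted from the 5′ end, miR-181a-5p and miR-181b-5p differed at 3 positions (A9U, C10U and A21G, with the base of miR-181a-5p first) and were alike at 20. Over the same 23 bases the only difference between miR-181b-5p and miR-181d-5p was C12U, and miR-181b-5p is the longer, at 24 bases against 23. How far the probes separate such close relatives was not tested.

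Both arms of miR-142a come from 1 hairpin, Mir142, on the plus strand of chromosome 11 (chr11:87756864-87756927, GRCm38.p6), with miR-142a-5p at 87756867 to 87756887 and miR-142a-3p at 87756903 to 87756925. The gene Mir142b lies on the minus strand over the same bases, and its mature miRNA of 20 bases is the exact reverse complement of miR-142a-3p from its base 4 on. The hairpin of miR-342-3p (chr12:108658620-108658718, plus strand) lies within the protein-coding gene Evl. The mature forms of miR-181a-5p and miR-181b-5p are each encoded at 2 places, on chromosomes 1 and 2. Mir181a-1 (chr1:137966455-137966541) and Mir181b-1 (chr1:137966639-137966718) lie 97 bases apart, and Mir181a-2 (chr2:38852735-38852810) and Mir181b-2 (chr2:38853830-38853918) lie 1019 bases apart within Nr6a1 and its antisense gene Nr6a1os. The array reads the mature form and does not tell the copies apart.

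The authors deposited linear signal intensities, scaled to a median of 25 over the listed miRNAs of each array. The arrays still differed in level. The median signal of the 362 shared miRNAs was 62.1 and 56.0 on the arrays of aged mice 1 and 2, and 67.9 and 35.2 on those of young mice 1 and 2. The array of young mouse 2 was the low one and also had the shortest list of miRNAs, 439 against 563 to 620 on the others. Over all 362 miRNAs the median log2 difference, aged minus young, was 0.31 on the deposited scale. After each array was scaled to the same median over these 362 miRNAs, called equal medians here, it was 0.03. Each miRNA is therefore described on the deposited scale first and on the scale of equal medians after it, since the shift between arrays is of the same order as the differences described. The number of arrays limits the precision, and levels of different probes are not set against each other.

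No member passed an adjusted p of 0.05 between the ages. On the deposited scale miR-342-3p, miR-150-5p and miR-142a-5p had higher mean log2 signals in aged plasma, and miR-181a-5p, miR-181b-5p and miR-142a-3p had lower ones. The values ran from 0.75 for miR-342-3p to -0.71 for miR-181a-5p on the log2 scale, each with a standard error of 0.60. The median of the 6 was 0.14, beside 0.31 for all 362 miRNAs. Of the 6, 0 were called lower and 0 higher by limma with Benjamini-Hochberg adjustment over all miRNAs, where 0.276% of the 362 were called lower and 0% higher. The adjusted p of the 6 was 0.84 to 0.89, and 0 of them had an unadjusted p under 0.05, against 22 of all 362. Both aged mice lay above both young mice for 2 of the 6 (19.9% of all 362) and below them for 1 of the 6 (9.94% of all 362).

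**Figure D1:**
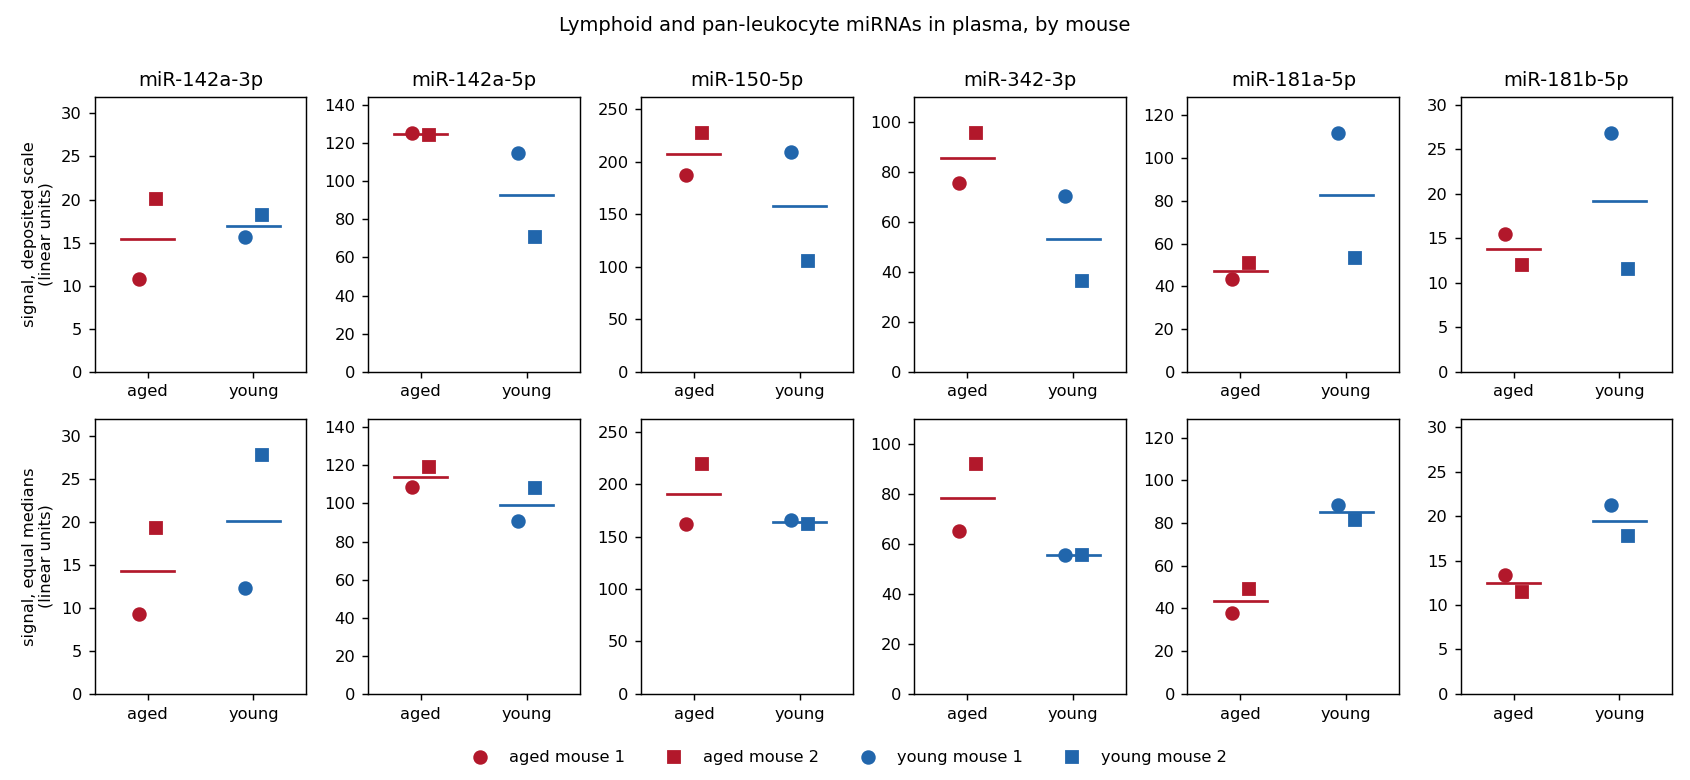
Signal of each of the 6 miRNAs (linear units, axes from 0) in the 2 aged and 2 young mice, on the deposited scale (upper row) and after the medians were set equal (lower row). Points are single arrays and bars are group means. With equal medians the young points of miR-150-5p, miR-342-3p and miR-181a-5p lie close together, and both aged points of miR-181a-5p lie below both young points on either scale.

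The 2 arms of the miR-142a hairpin, the marker of leukocytes in general, differed in the sign of their difference between the ages. The 5p arm had a signal of 126 and 124 in aged mice 1 and 2, against 115 and 70.9 in young mice 1 and 2. Both aged mice were above both young mice, and the aged pair nearly coincided. The means were 125 ± 0.990 (SD, n = 2) in aged and 92.8 ± 30.9 (SD, n = 2) in young plasma. For miR-142a-5p the log2 difference was 0.47 (limma, 95% confidence interval -0.71 to 1.65, adjusted p = 0.88), or 0.17 above the median of all miRNAs. Leaving out young mouse 1 gave 0.82, and leaving out young mouse 2 gave 0.12. After the medians were set equal, the signals of miR-142a-5p were 109 and 119 in the aged mice and 90.6 and 108 in the young mice. The groups were then apart by a narrow margin, and the log2 difference was 0.20 (limma, SE 0.42, adjusted p = 0.90).

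The 3p arm was a weak signal. It was listed at 10.8 and 20.1 in aged mice 1 and 2, against 15.6 and 18.2 in young mice 1 and 2. The ages overlapped, the aged mice lying on either side of the young ones, and without aged mouse 1 the log2 difference of miR-142a-3p was 0.25. Left out in turn, aged mouse 2, young mouse 1 and young mouse 2 gave -0.64, -0.30 and -0.08. The 4 signals were 1.54 and 2.12 times the lowest listed value of the array in the aged mice, and 2.23 and 2.25 times in the young mice. The log2 difference of miR-142a-3p was -0.19 (limma, 95% confidence interval -1.37 to 0.98, adjusted p = 0.89). On the scale of equal medians the signals were 9.33 and 19.3 in the aged mice and 12.3 and 27.8 in the young mice, a log2 difference of -0.46 with the ages still overlapping. On this scale miR-142a-3p was the member whose 2 young mice differed most, by 1.17 on the log2 scale with young mouse 2 the higher, beside a median absolute difference of 0.34 between the young mice over all miRNAs.

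The miRNA of mature lymphocytes, miR-150-5p, had a signal of 187 and 228 in aged mice 1 and 2, against 210 and 106 in young mice 1 and 2. Young mouse 1 lay between the aged mice and young mouse 2 below all others. The means were 208 ± 28.9 (SD, n = 2) in aged and 158 ± 73.3 (SD, n = 2) in young plasma, and the log2 difference of miR-150-5p was 0.47 (limma, 95% confidence interval -0.70 to 1.65, adjusted p = 0.88). With equal medians its signals were 162 and 219 in the aged mice and 166 and 162 in the young mice. Aged mouse 1 and both young mice were then alike, aged mouse 2 was higher, and the log2 difference was 0.20 (limma, adjusted p = 0.90). Without young mouse 2 the log2 difference of miR-150-5p on the deposited scale was -0.02, and without young mouse 1 it was 0.97.

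The intronic miRNA of Evl, miR-342-3p, had a signal of 75.7 and 95.8 in aged mice 1 and 2, against 70.2 and 36.4 in young mice 1 and 2. Both aged mice were above both young mice, though aged mouse 1 and young mouse 1 were close. The means were 85.8 ± 14.2 (SD, n = 2) in aged and 53.3 ± 23.9 (SD, n = 2) in young plasma, a ratio of 1.61. The log2 difference of miR-342-3p was 0.75 (limma, 95% confidence interval -0.42 to 1.93, adjusted p = 0.84), and it ranked 64th from the highest of the 362. At equal medians the signals were 65.4 and 91.9 in the aged mice and 55.5 and 55.6 in the young mice. The young mice then coincided and both aged mice were above them, with a log2 difference of 0.48 (limma, SE 0.42, adjusted p = 0.61). Without young mouse 1 the log2 difference of miR-342-3p on the deposited scale was 1.23, and without young mouse 2 it was 0.28.

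The thymocyte and lymphocyte miRNA miR-181a-5p had a signal of 43.6 and 51.1 in aged mice 1 and 2, against 112 and 53.4 in young mice 1 and 2. Both aged mice were below both young mice, but aged mouse 2 and young mouse 2 were close and young mouse 1 stood well above the rest. The means were 47.4 ± 5.30 (SD, n = 2) in aged and 82.7 ± 41.4 (SD, n = 2) in young plasma, a ratio of 0.573. The log2 difference of miR-181a-5p was -0.71 (limma, 95% confidence interval -1.89 to 0.46, adjusted p = 0.84), or -1.02 relative to the median of all miRNAs, and it ranked 26th from the lowest of the 362. Once the medians were equal, the signals were 37.7 and 49.0 in the aged mice and 88.5 and 81.5 in the young mice. Each age then held together, the ages were apart, and the log2 difference was -0.98 (limma, SE 0.42, adjusted p = 0.20). Without young mouse 1 the log2 difference of miR-181a-5p on the deposited scale was -0.18, and without young mouse 2 it was -1.25.

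Its relative miR-181b-5p, with the same seed, had a signal of 15.5 and 12.0 in aged mice 1 and 2, against 26.9 and 11.6 in young mice 1 and 2. The ages overlapped, since young mouse 2 had the lowest value and young mouse 1 the highest. In aged mouse 2 the value was 1.26 times the lowest listed on the array, and in young mouse 2 it was 1.43 times. The log2 difference of miR-181b-5p was -0.37 (limma, 95% confidence interval -1.55 to 0.80, adjusted p = 0.88). On the other scale the signals were 13.4 and 11.5 in the aged mice and 21.3 and 17.7 in the young mice, so that the aged pair was the lower one, with a log2 difference of -0.64 (limma, SE 0.42, adjusted p = 0.51). Without young mouse 1 the log2 difference of miR-181b-5p on the deposited scale was 0.23, and without young mouse 2 it was -0.98. The aged mice, left out in turn, gave -0.56 for mouse 1 and -0.19 for mouse 2.

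With equal medians, limma called 3.31% of the 362 miRNAs lower and 1.10% higher in aged plasma, and 0 of the 6 either way. The smallest unadjusted p of the 6 was then 0.020, for miR-181a-5p. Both aged mice were above both young mice for miR-142a-5p and miR-342-3p, 2 of the 6, as for 21.8% of all 362. They were below them for miR-181a-5p and miR-181b-5p, 2 of the 6, as for 22.7% of all 362. Most of the difference between the scales lay in the young arrays. On the deposited scale 5 of the 6 were higher in young mouse 1 than in young mouse 2, as were 344 of all 362, and the median absolute log2 difference between the young mice was 0.97 for the 6 and 0.87 for all. With equal medians these were 0.19 for the 6 and 0.34 for all, and between the aged mice 0.41 for the 6 and 0.42 for all.

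**Figure D2:**
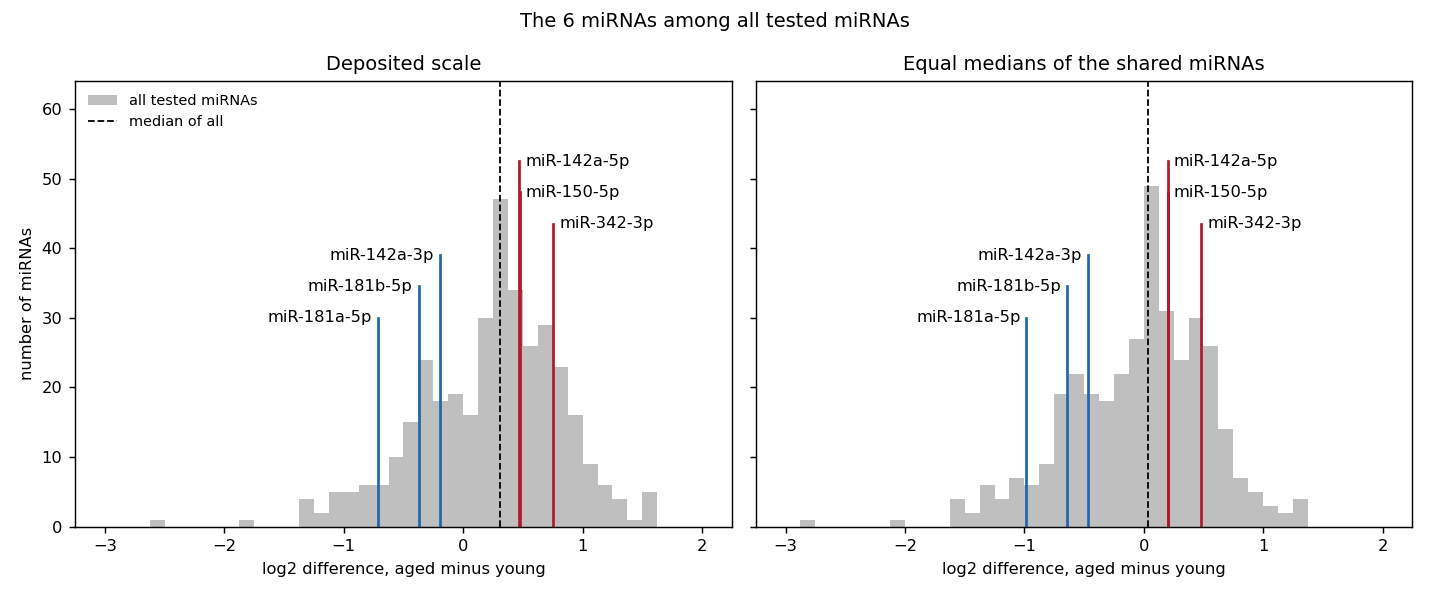
Number of miRNAs by log2 difference, aged minus young, for all 362 tested miRNAs (grey), with the 6 miRNAs as labelled lines (red above 0, blue below 0) and the median of all as a dashed line, on the deposited scale (left) and with equal medians (right). The 6 miRNAs lie on both sides of the median of all, which is 0.31 on the left and 0.03 on the right, and none lies at either end of the distribution.

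Within an age the labels number the mice 1 and 2, and the study presents the arrays as a pair of experiments. In the first, aged mouse 1 against young mouse 1, the log2 differences were -1.36 for miR-181a-5p, -0.80 for miR-181b-5p and -0.53 for miR-142a-3p, and -0.16 for miR-150-5p, 0.11 for miR-342-3p and 0.13 for miR-142a-5p. In the second, aged mouse 2 against young mouse 2, they were -0.06 for miR-181a-5p, 0.05 for miR-181b-5p, 0.14 for miR-142a-3p, 1.11 for miR-150-5p, 1.40 for miR-342-3p and 0.81 for miR-142a-5p. The array as a whole also differed between the experiments, with a median over all 362 miRNAs of -0.12 in the first and 0.75 in the second. On the deposited scale 1 of the 6, miR-181a-5p, was lower in the aged mouse in both experiments, as were 46 of all 362 miRNAs. Higher in both were 2 of the 6, miR-142a-5p and miR-342-3p, and 137 of all 362.

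With equal medians the experiments were closer. The miRNA miR-181a-5p had log2 differences of -1.23 and -0.73 in experiments 1 and 2, and miR-181b-5p had -0.67 and -0.62. For miR-142a-3p they were -0.40 and -0.53, for miR-342-3p 0.24 and 0.73, and for miR-142a-5p 0.26 and 0.14. The sign of miR-150-5p differed between the experiments, at -0.03 and 0.44. Thus 3 of the 6 were lower in the aged mouse in both experiments (113 of all 362) and 2 were higher in both (130 of all 362).

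**Figure D3:**
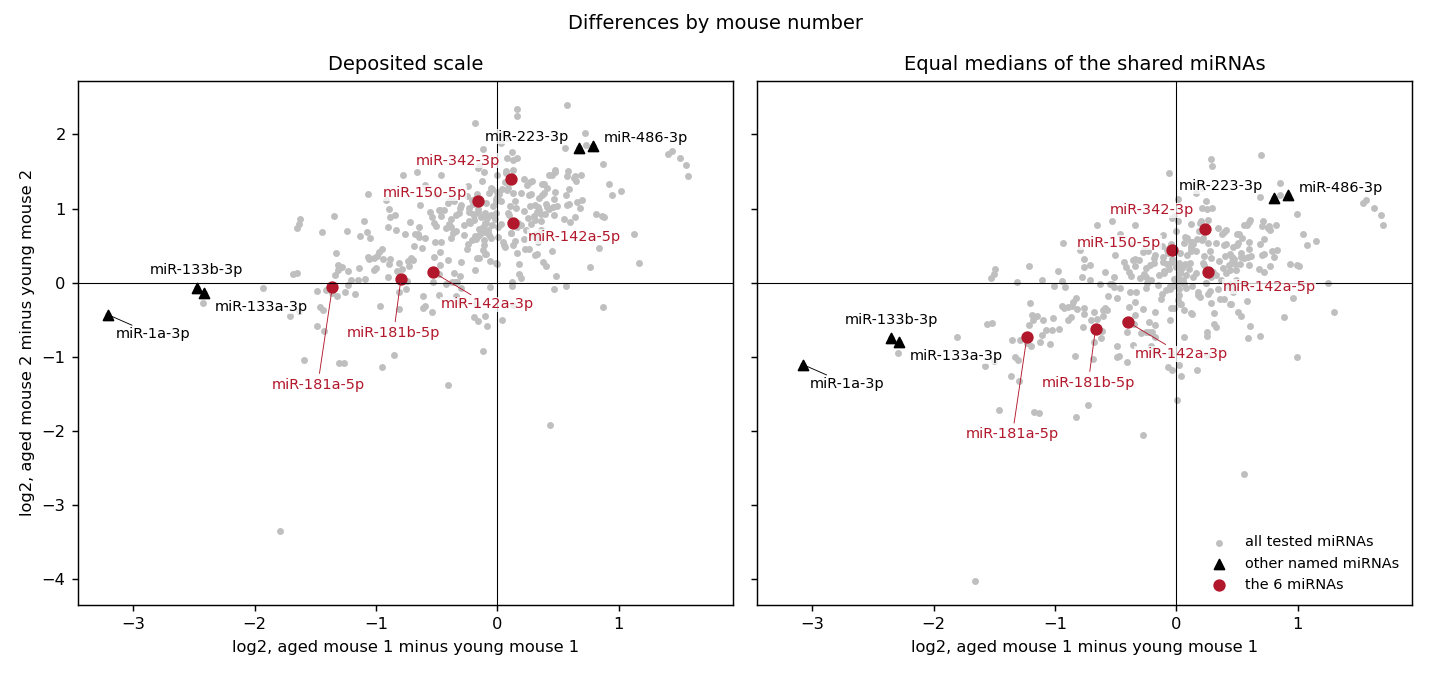
Log2 difference of aged mouse 1 minus young mouse 1 (horizontal axis) against that of aged mouse 2 minus young mouse 2 (vertical axis), for all 362 miRNAs (grey), the 6 miRNAs (red) and 5 other named miRNAs (black triangles), on the deposited scale (left) and with equal medians (right). On the left the points are shifted upward, and on the right miR-181a-5p, miR-181b-5p and miR-142a-3p lie below 0 on both axes.

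The ratio of 2 members on the same array is not changed by a factor applied to that array. The level of such a ratio holds the brightness of both probes and was not read, whereas its difference between the ages, aged minus young, was. The log2 ratio of miR-342-3p over miR-181a-5p was 0.80 and 0.91 in aged mice 1 and 2, against -0.67 and -0.55 in young mice 1 and 2. The mice of each age nearly coincided, and the difference was 1.46 (SD 0.08 in aged and 0.09 in young mice, n = 2 each). This pair is given first because its difference was the largest of the 15 pairs of members. The pairs of first interest had been the 2 arms of miR-142a and miR-181a-5p over miR-181b-5p. For both of those the ages overlapped, as given below. For miR-150-5p over miR-181a-5p the log2 ratio was 2.10 and 2.16 in the aged mice, against 0.90 and 0.99 in the young mice, a difference of 1.19 (SD 0.04 in aged and 0.06 in young mice, n = 2 each). These ratios differed by much the same amount in experiments 1 and 2, by 1.47 and 1.46 for miR-342-3p over miR-181a-5p and by 1.20 and 1.17 for miR-150-5p over miR-181a-5p. The size depended on the processing. For miR-342-3p over miR-181a-5p it was 1.17 with 16 added to the signals and 1.43 after quantile normalization. For miR-150-5p over miR-181a-5p it was 1.00 and 1.37 in the same settings.

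The log2 ratio of miR-142a-5p over miR-181a-5p was higher in aged mice by 1.18, and its ages were also apart. Over miR-181b-5p the differences were 1.13 for miR-342-3p, 0.85 for miR-150-5p and 0.84 for miR-142a-5p, again with the ages apart. In the same order they were 0.80, 0.64 and 0.62 with 16 added to the signals, and 0.77, 0.52 and 0.67 without aged mouse 2. The signal of miR-181b-5p was only 1.26 and 1.43 times the lowest listed value in aged mouse 2 and young mouse 2. Thus for each of miR-342-3p, miR-150-5p and miR-142a-5p the ratio over either member of the miR-181 family was higher in aged mice, by 0.84 to 1.46 on the log2 scale. This direction follows from the signs of the single members given above. The ratios share members and arrays, so they are not separate observations. The smallest two-sided p that exact permutation allows for groups of 2 mice is 0.333, which is the p of each of these ratios. The ages were apart for 8 of the 15 pairs of members, beside 48.4% of all pairs of the 362 miRNAs. They were apart with a difference of at least 1 for 4 of the 15, beside 20.4% of all pairs. Both shares are near those of all miRNAs and are not a result about these 6.

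**Figure D4:**
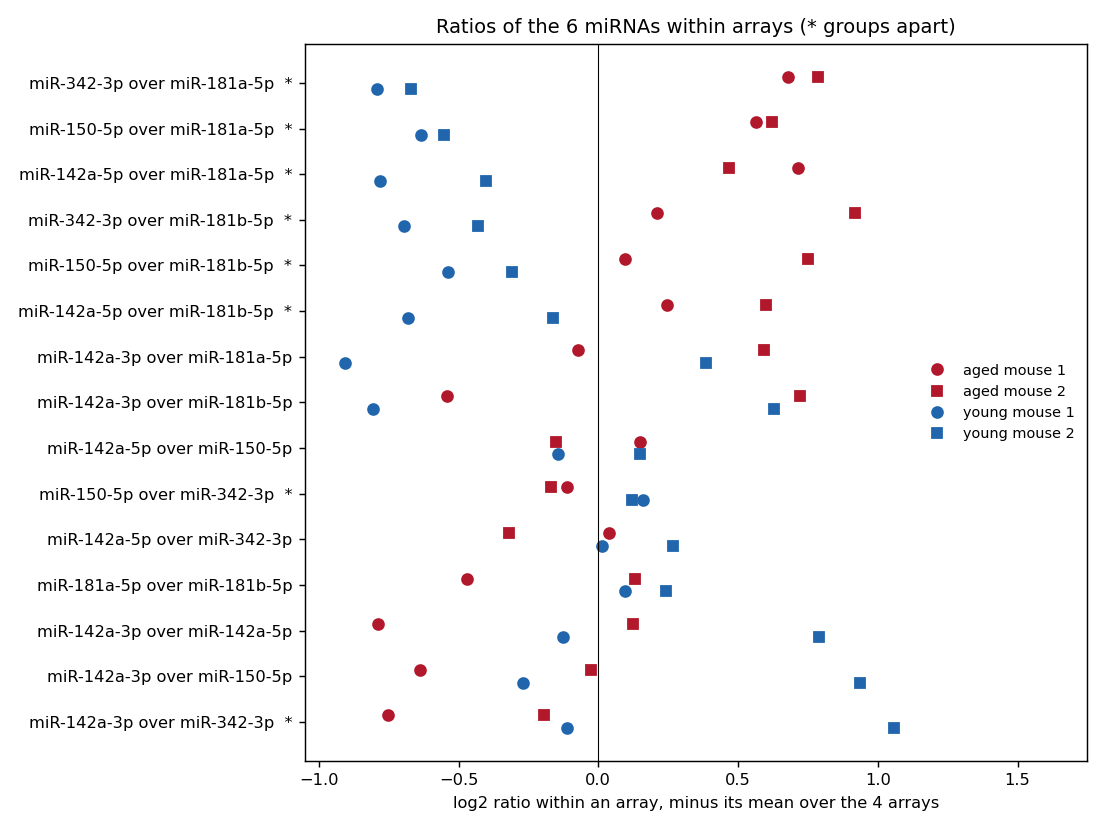
Log2 ratio of each of the 15 pairs of members within an array, minus the mean of that ratio over the 4 arrays, for aged mice (red) and young mice (blue). An asterisk marks the 8 pairs whose ages do not overlap, and in the upper rows the aged points lie to the right of the young points for each of miR-342-3p, miR-150-5p and miR-142a-5p over miR-181a-5p.

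Within the hairpin of miR-142a, the log2 ratio of miR-142a-3p over miR-142a-5p was -3.54 and -2.63 in aged mice 1 and 2, against -2.88 and -1.96 in young mice 1 and 2. The ages overlapped, and the difference was -0.66, at -0.66 in the first experiment and -0.67 in the second. It was -0.21 without aged mouse 1 or young mouse 2, and -1.12 without aged mouse 2 or young mouse 1. The log2 ratio of miR-181a-5p over miR-181b-5p was 1.49 and 2.09 in the aged mice, against 2.06 and 2.20 in the young mice, a difference of -0.34 with the ages overlapping. With aged mouse 1 left out it was -0.04, and with aged mouse 2 left out -0.64. That of miR-142a-5p over miR-150-5p differed by -0.002 between the ages on average, with values per mouse that overlapped. For miR-150-5p over miR-342-3p the difference was -0.28 with the ages apart, at -0.27 and -0.29 in the experiments, but -0.06 after quantile normalization and -0.17 with 16 added to the signals.

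The closest pair of members by their profile over the 4 arrays was miR-150-5p and miR-342-3p, with a Euclidean distance of 0.28 between their centred log2 values on the deposited scale. The distance was 0.30 for miR-142a-5p and miR-150-5p and 0.55 for miR-181a-5p and miR-181b-5p. The arms of miR-142a were farther apart, at 1.13, and the most distant pair was miR-342-3p and miR-181a-5p at 1.47. As a background, the median distance to the 356 miRNAs outside the 6 was 1.175 for miR-142a-3p and 0.66 for miR-142a-5p. It was 0.74 for miR-150-5p, 0.80 for miR-342-3p, 1.16 for miR-181a-5p and 1.00 for miR-181b-5p. Outside the 6, among 356 miRNAs, the nearest to miR-150-5p was MIMAT0000539 at a distance of 0.05, with signals of 189 and 228 in the aged mice and 218 and 105 in the young mice. The nearest to miR-181a-5p was MIMAT0025580 at 0.13, with 22.1 and 28.3 in the aged mice and 59.0 and 30.4 in the young mice. The files do not pair these identifiers with names. The likeness is described over 4 arrays that share their scaling.

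Beside the 6, 48 miRNAs had been listed. They were miRNAs of other cell types that can be in plasma, other lymphocyte miRNAs, and opposite arms and relatives of the members. Of the 48, 5 could be named from the signals printed by the study. The myeloid list had 2, of which miR-223-3p could be named, which neutrophils and monocytes express. Its signal was 430 and 499 in aged mice 1 and 2, against 269 and 141 in young mice 1 and 2, with both aged mice above both young mice and a log2 difference of 1.25 (limma, adjusted p = 0.80). With equal medians the log2 difference of miR-223-3p was 0.98 (limma, adjusted p = 0.20). Of the 7 erythroid miRNAs listed, only miR-486-3p could be named, at 836 and 437 in the aged mice and 485 and 121 in the young mice, a log2 difference of 1.32 with the ages overlapping (1.05 and apart with equal medians). Of the 4 muscle miRNAs, 3 could be named, and for each the aged mice lay below the young mice. The log2 difference was -1.82 for miR-1a-3p (limma, adjusted p = 0.44) and -1.28 for both miR-133b-3p and miR-133a-3p (limma, adjusted p = 0.80). With equal medians all 3 passed the threshold, at -2.09 for miR-1a-3p (limma, adjusted p = 0.00016) and -1.55 for the other pair (limma, adjusted p = 0.016). Those p-values rest on a standard error of 0.42 common to all miRNAs, not on the spread of each. For miR-1a-3p the aged signals on that scale were 49.1 and 153. After quantile normalization none passed (limma, adjusted p = 0.32 for each), with -1.99 for miR-1a-3p. The standard errors there ran from 0.21 to 0.97 over all miRNAs. The platelet and endothelial list (4), the liver list (3), the list of other lymphocyte miRNAs (17) and that of opposite arms and relatives of the members (11) had 0 named here. The study chose these 5 for display on the same arrays, so their array values are not independent evidence of a direction. For miR-1 and miR-133 the study also reports lower levels in aged blood by qRT-PCR. It states that the age differences were seen again in exosomal RNA from plasma. The part of these 5 in the values of the 6 miRNAs was not tested.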

How the data were processed

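Intensity values were deposited on a linear scale that the authors had set to a median of 25 over the listed miRNAs of an array, and unlisted miRNAs are blank. The sources used here do not give how background was subtracted, how the scaling was done or what made a miRNA listed. Another 8 per-sample columns were left out because their headings match no mouse. Of 1265 probes, the 362 listed on every array were compared as log2 intensity without a pseudocount, aged minus young, with limma 3.58.1 in R 4.3.3 (lmFit and eBayes) and Benjamini-Hochberg adjustment over the 362 at a threshold of 0.05. On the deposited scale and with equal medians, eBayes took 1 spread as common to all miRNAs. The fit was tested on simulated data with the same noise for every miRNA and no shift between arrays. That test cannot show how the fit does where arrays are shifted, as they were here. Each array is a separate mouse, so the spread within an age holds differences between mice and between arrays, which cannot be told apart.

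The 6 miRNAs, the lists and the tests were chosen with earlier results of these data known. The rule for named miRNAs took the 6 and at most 4 of each list of other miRNAs. For each of the 6 it also took the nearest miRNA by Euclidean distance, of which 2 are printed. The names of the 6 came with the choice of identifiers. The 5 other names came from matching all 4 signals of a probe with those the study printed. Sequences and positions are from RefSeq on GRCm38.p6, and 5 of the 6 matched by name. Python 3.11.15 served for ratios within arrays and distances (pandas 2.3.3, numpy 2.4.6), exact tests (scipy 1.17.1) and plots (matplotlib 3.10.9).

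Results were recomputed with a replicate block, without each array, after quantile normalization, at equal medians, with low signals filtered out, with blanks set to the lowest value of the array, with 16 added before the log, with a trended and robust variance, and by the test named in the general methods. A scaling by the 439 brightest miRNAs per array was added once the data had been seen.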

Additional observations from a re-analysis of the deposited data

How the results depend on the processing

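Under the 13 alternatives, 73 of the 76 values of the 6 miRNAs kept their direction. The other 3 changed sign, each in a fit without 1 array. Many of the 76 could not change. The filter on low signals, filled blanks and the replicate block leave the log2 difference of a member as it is. So do the trended and robust variance and the test named in the methods. Without 1 array the log2 differences ran from -0.64 to 0.25 for miR-142a-3p, from -0.0201 to 0.97 for miR-150-5p and from -0.98 to 0.23 for miR-181b-5p. Such a fit takes the spread of the lone mouse to be that of the other age. With all 4 arrays, adjusted p-values of the 6 from limma or the test named in the methods ran from 0.20 to 0.9999. Filtering out low signals removed miR-142a-3p and miR-181b-5p and kept 4 of the 6, whose median log2 difference was 0.47. With quantile normalization or scaling on the brightest miRNAs both aged mice lay above both young mice for miR-150-5p as well. The median of all 6 was 0.14 on the deposited scale, -0.13 with equal medians, -0.03 with quantile normalization and -0.08 with scaling on the brightest miRNAs. Leaving out 1 array gave a median of 0.53 without young mouse 1, 0.36 without aged mouse 1, 0.07 without aged mouse 2 and -0.05 without young mouse 2, so that its sign depended on the setting.

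Of all miRNAs, 1 was called on the deposited scale (1 lower, 0 higher), 16 with equal medians (12 lower, 4 higher), 18 with scaling on the brightest miRNAs (12 lower, 6 higher), 2 with blanks filled, and 0 to 50 without 1 array (50 without young mouse 1, of which 49 were higher, and 2 without young mouse 2). None was called with quantile normalization, the trended and robust variance or the test the methods name, with 53, 15 and 7 at an unadjusted p under 0.05. The cause was not tested. The labels link the mice by number only and the study calls the numbers experiments, and no source used here says whether same-numbered arrays were hybridized together. The deviations of same-numbered arrays from the means of their ages had a correlation of 0.34 across miRNAs. With the number as a replicate block 1 miRNA was called, with an adjusted p of 0.73 to 0.87 for the 6.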
